A study of Mus musculus with 2 samples.

Results

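The gonad somatic and endothelial markers are 43 genes that mark the cells surrounding germ cells in the embryonic gonad, and they were examined as a check on cell composition in cultured primordial germ cells (PGCs). They were taken by gene symbol from a written list, and 41 of them were found by exact symbol in both deposited tables, which share 23320 named genes. The other 2, Insl3 and Pdgfra, are held only under names joined with a neighbouring gene. The 43 genes were placed in 6 groups, namely supporting cells, steroidogenic cells, transcription factors of the gonad soma, stroma, epithelium and endothelium.

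PGCs were sorted for intense GFP from E13.5 embryos of MCH females mated with Oct4-deltaPE-GFP males on a C57BL/6J background, with genital ridges dissected from embryos of both sexes. They were infected at an MOI of 5 with CSII-EF lentivirus that expressed Klf9 from its coding region (Klf9-OE) or with a control lentivirus, and were cultured for 1 day on gelatin without feeder cells. The labels give a GS medium that contains bFGF, whereas the text of the study describes the RNA-seq culture as without it, and both apply to the 2 libraries alike. Each condition had 1 library of total RNA, so no difference below has a replicate check. Which of the control vectors was used for these libraries, and how many embryos of each sex were pooled, are not given in the sources used here.

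In the gonad, somatic cells enclose germ cells and direct their fate. Supporting cells become Sertoli cells in the testis, under Sry and Sox9, or pregranulosa cells in the ovary, where Foxl2 and Wnt4 act. Fetal Leydig cells make androgens from cholesterol, stromal cells and vessels fill the space between, and the coelomic epithelium covers the gonad. A sort for germ cells can carry some of these cells along, and some of the genes, such as Pecam1, are also expressed by germ cells themselves.

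Values are FPKM, the fragments scaled to the length of the exons and to the mapped reads of the library, as Cufflinks estimated them with a 95% interval. The interval covers the error of estimation within 1 library, and the intervals of a gene are called apart here when they share no value. Log2 fold changes are log2(FPKM + 0.1) in Klf9-OE PGCs minus the same in control PGCs, which understates changes at low FPKM. Klf9 itself had an FPKM of 2.27 in control PGCs against 80.8 in Klf9-OE PGCs, with intervals apart. By the width of the intervals, 1.22 reads stood behind the Klf9-OE library for each read of the control library (median over 2261 genes). The read numbers implied by the Klf9-OE intervals were mostly even, and if each read was counted as a pair there, the ratio would be 0.61, so which library was deeper is not known.

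Most of the markers were present at a low level in both libraries, far under the germ cell genes. All 41 were above 0 in at least 1 library and 35 in both, 5 reached an FPKM of 10 in at least 1 library, 20 lay between 1 and 10, and 16 stayed below 1 in both. The median percentile of the markers among the expressed named genes was 35.9 in control PGCs against 39.1 in Klf9-OE PGCs. For comparison, the 24 germ cell genes of a list with Ddx4, Dazl and Pou5f1 had median percentiles of 93.6 and 92.9. The plot of each marker with its interval shows the range, from Vim and Clu near 100 down to genes listed at 0.

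**Figure D1:**
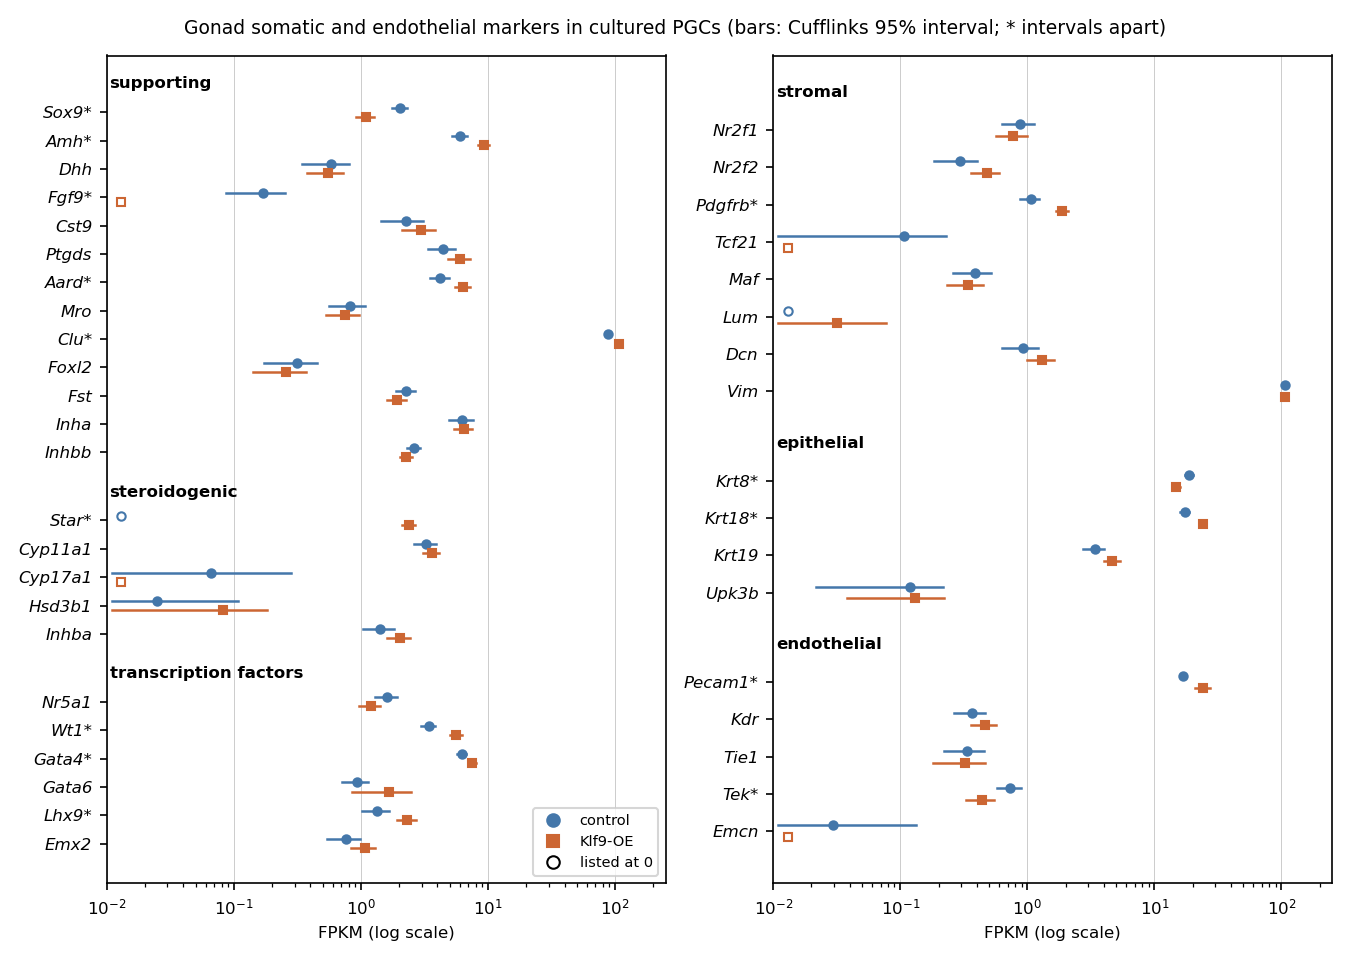
FPKM (log axis) of the 41 markers in control PGCs (circles) and Klf9-OE PGCs (squares), with bars for the Cufflinks 95% interval, 1 library per condition. Open symbols at the left edge are genes listed at 0, and an asterisk marks the 14 markers whose intervals were apart.

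Differences between the libraries were small for most markers. The intervals were apart for 14 of the 41, with 10 higher and 4 lower in Klf9-OE PGCs. These are 24.4% and 9.76% of the markers, beside 11.2% higher and 14.4% lower among all 18742 named genes above 0 in at least 1 library. Among genes with an FPKM of at least 1 in at least 1 library, 10 of 25 markers were higher and 2 were lower with intervals apart, beside 14.8% and 20.2% of 12565 genes. The 10 were Amh, Aard, Clu, Star, Wt1, Gata4, Lhx9, Pdgfrb, Krt18 and Pecam1, and the 4 were Sox9, Fgf9, Krt8 and Tek. Of these, 9 higher markers were above 0 in both libraries, and none of those reached a 2-fold difference, the ratios running from 1.2 for Gata4 to 1.78 for Pdgfrb. The read numbers implied by the intervals of Clu, Wt1, Lhx9 and Pecam1 did not follow their FPKM ratio within 10%, allowing for depth. Those of Amh, Aard, Gata4, Pdgfrb and Krt18, and of the lower markers Sox9, Krt8 and Tek, did. At a ratio of 2 with no pseudocount, 3 markers were higher (7.32%, beside 9.82% of all genes) and 4 were lower (9.76%, beside 9.43%). Of these 7 markers, 6 were listed at 0 in 1 library, and the other was Hsd3b1 with an FPKM under 0.1 in both. The median log2 fold change over the 41 markers was 0.26, beside -0.02 over all named genes and -0.30 over the germ cell list. In RNA from a whole culture, fewer cells of a type and less RNA per cell cannot be told apart.

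**Figure D2:**
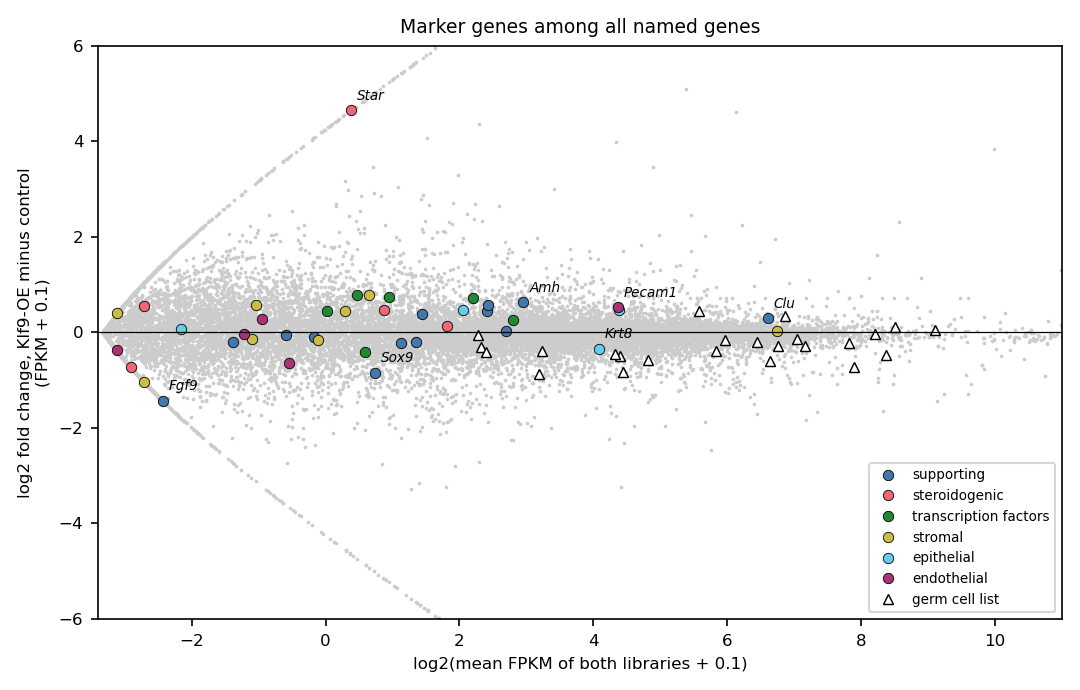
Log2 fold change (Klf9-OE minus control, FPKM + 0.1) against the log2 of the mean FPKM + 0.1 for all named genes within the axes (grey), the markers (coloured by group) and the germ cell list (triangles). Apart from Star, Fgf9 and Tcf21, each listed at 0 in 1 library, the markers lie within a log2 fold change of 1 on either side of 0. Most of the germ cell genes lie to the right of most markers, but many lie to the left of Vim and Clu.

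The supporting cell markers did not differ in one direction. Of 13, 3 were higher and 2 were lower with intervals apart, 8 had intervals that overlapped, and the median log2 fold change was -0.06. Amh, the Sertoli cell hormone that removes the Müllerian ducts (chromosome 10, 80805248 to 80807648 of mm10), had an FPKM of 5.99 in control PGCs (95% interval 5.20 to 6.78) against 9.29 in Klf9-OE PGCs (8.41 to 10.2), a log2 fold change of 0.62. Sox9, the transcription factor that commits supporting cells to the Sertoli fate and acts on the Amh promoter (chromosome 11, 112782210 to 112787757), had 2.04 (1.76 to 2.31) and 1.09 (0.906 to 1.27), a log2 fold change of -0.85. Amh and Sox9 thus differed between the libraries in opposite directions, each with intervals apart. Aard, a Sertoli-enriched gene of the embryonic testis (chromosome 15, 52040107 to 52045722), had 4.22 (3.49 to 4.95) and 6.35 (5.52 to 7.18). Clu, which encodes the secreted chaperone clusterin and is also made by many other cells (chromosome 14, 65968483 to 65981547), had 87.4 (83.2 to 91.7) and 107 (104 to 109.7), a ratio of 1.22. Clu alone gave 73.2% of the summed FPKM of the group in control PGCs and 73.8% in Klf9-OE PGCs.

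Fgf9, a growth factor that maintains Sox9 in the testis (chromosome 14, 58072686 to 58112720), had an FPKM of 0.170 in control PGCs (0.0864 to 0.254) and was listed at 0 in Klf9-OE PGCs. Dhh, the hedgehog ligand by which Sertoli cells act on Leydig precursors, had 0.576 (0.342 to 0.810) and 0.550 (0.375 to 0.725). Both were below an FPKM of 1 in each library. Ptgds, which makes prostaglandin D2, had 4.41 (3.35 to 5.48) and 6.05 (4.84 to 7.26). Cst9 (testatin) had 2.26 (1.44 to 3.09) and 2.96 (2.10 to 3.82), and Mro (maestro) had 0.815 (0.560 to 1.07) and 0.753 (0.533 to 0.973). The intervals of Dhh, Ptgds, Cst9 and Mro overlapped.

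On the pregranulosa side, both markers overlapped between the libraries. Fst (follistatin, which binds activin) had an FPKM of 2.26 in control PGCs (1.88 to 2.65) against 1.92 in Klf9-OE PGCs (1.59 to 2.25). Foxl2, the transcription factor of the ovarian supporting cell, had 0.314 (0.173 to 0.454) and 0.257 (0.142 to 0.372). Markers of both the testis and the ovary were thus measured in each library. Inha, the alpha subunit of inhibin, had 6.29 (4.95 to 7.63) and 6.45 (5.37 to 7.54), and Inhbb, a beta subunit shared by inhibin and activin, had 2.62 (2.31 to 2.93) and 2.28 (2.02 to 2.54). The inhibin subunits overlapped as well.

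Sex-linked genes are given beside these markers, since ridges of both sexes were dissected. Xist, expressed from the inactive X of female cells, had an FPKM of 0.829 (0.739 to 0.920) in control PGCs against 2.05 (1.91 to 2.20) in Klf9-OE PGCs, with intervals apart. Of 4 Y-linked genes, Eif2s3y had 59.0 (55.6 to 62.4) and 49.3 (46.5 to 52.2), with intervals apart, and Ddx3y, Kdm5d and Uty had overlapping intervals. The part of these differences in the supporting cell markers was not tested.

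Among 20 further supporting cell genes that are no members of the marker list, 19 were above 0. As with the members, both directions occurred, with 3 higher and 3 lower with intervals apart and a median log2 fold change of -0.19. Amhr2, the receptor of Amh, had an FPKM of 3.81 (3.09 to 4.52) in control PGCs against 2.19 (1.80 to 2.57) in Klf9-OE PGCs, opposite to its ligand. However, the intervals of Amhr2 imply 113 reads in control PGCs and 128 in Klf9-OE PGCs. These implied reads did not fall with its FPKM. Kitl, the ligand of the Kit receptor of germ cells, had 1.80 (1.56 to 2.03) and 2.83 (2.57 to 3.08). Lgr5 and Runx1, both expressed by ovarian supporting cells, were higher with log2 fold changes of 0.95 and 0.64, whereas Bmp2, also ovarian, was lower with -0.56. Mmd2, a Sertoli gene, had 0.112 in control PGCs and no FPKM above 0 in Klf9-OE PGCs. The highest in the list in control PGCs were Gadd45g at 15.4 and 13.4 and Defb19 at 5.35 and 2.82, with overlapping intervals.

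The steroidogenic markers turned on 1 gene, Star, whose protein moves cholesterol into mitochondria for the first step of steroid synthesis. Star (chromosome 8, 25808513 to 25815982) was listed at 0 in control PGCs, with bounds of 0, and had an FPKM of 2.39 in Klf9-OE PGCs (2.12 to 2.67), where the interval implies 302 reads. An exact 0 can be a failed estimate. The control row of Star carries the identifier of a transcript that Cufflinks assembled in that library, and so does the Klf9-OE row of Fgf9. Such rows were listed at 0 for 583 of 9738 named loci in the control table (5.99%) and for 542 of 8700 in the Klf9-OE table (6.23%). Of the named genes with 1 locus in each table, 82 were listed at 0 in control PGCs with at least 100 implied reads in Klf9-OE PGCs, and 48 were so in the other direction. No fold is given for Star or Fgf9, and without them 9 markers were higher and 3 were lower with intervals apart.

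The steroidogenic enzymes had intervals that overlapped. Cyp11a1, which cleaves the side chain of cholesterol (chromosome 9, 58015017 to 58027023), had an FPKM of 3.27 in control PGCs (2.63 to 3.91) against 3.60 in Klf9-OE PGCs (3.07 to 4.13). Cyp17a1, the enzyme that leads to androgens, had 0.0666 (0 to 0.279) and was listed at 0 in Klf9-OE PGCs. Hsd3b1, a 3-beta-hydroxysteroid dehydrogenase with close relatives such as Hsd3b6, had 0.0249 (0 to 0.109) and 0.0815 (0 to 0.184). The last 2 enzymes were thus at or near 0 in both libraries, in contrast to Cyp11a1. Inhba, the activin A subunit that fetal Leydig cells secrete, had 1.43 (1.03 to 1.82) and 2.02 (1.59 to 2.45), with overlapping intervals. Insl3, a Leydig cell hormone, has no value of its own, as its locus is joined with Jak3, and the joint locus had 2.77 (2.37 to 3.17) and 2.56 (2.21 to 2.91). The summed FPKM of the group was 4.78 and 8.10, and 4.78 and 5.71 without Star.

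Of 10 further steroidogenic genes, 1 was higher and 1 was lower with intervals apart, and the median log2 fold change was -0.12. These were Cyb5a, an electron donor to Cyp17a1, at 28.5 and 34.5, and Scarb1, a receptor for cholesterol-carrying lipoprotein, at 21.1 and 16.9. Both are also used outside steroid-making cells, as is the reductase Por at 58.2 and 53.4. Lhcgr, Cyp11b1, Cyp21a1, Cyp19a1 and Hsd3b6, whose use is more restricted, were below 0.05 in both libraries.

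Of the 6 transcription factors of the gonad soma, 3 were higher in Klf9-OE PGCs with intervals apart and none was lower with intervals apart. The median log2 fold change of 0.58 was the highest of the 6 groups. Wt1, needed for the gonad and kidney to form (chromosome 2, 105126529 to 105173614), had an FPKM of 3.41 in control PGCs (2.99 to 3.83) against 5.64 in Klf9-OE PGCs (5.0 to 6.27). Lhx9, a LIM homeobox factor of the gonadal ridge (chromosome 1, 138825186 to 138847579), had 1.34 (1.02 to 1.66) and 2.32 (1.92 to 2.72). Gata4, which acts at the onset of gonad formation and in supporting cells (chromosome 14, 63198915 to 63245260), had 6.21 (5.67 to 6.74) and 7.47 (6.93 to 8.0). Each was higher in Klf9-OE PGCs by 1.2 to 1.73 times. The intervals imply 266 and 315 reads for Wt1 and 71.0 and 133 for Lhx9. Allowing for depth, neither pair was within 10% of the FPKM ratio, whereas that of Gata4 was.

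The other factors overlapped. Emx2, required for the gonadal epithelium, had an FPKM of 0.758 in control PGCs (0.543 to 0.974) against 1.07 in Klf9-OE PGCs (0.837 to 1.30). Gata6, a relative of Gata4, had 0.923 (0.704 to 1.14) and 1.66 (0.848 to 2.47), where the Klf9-OE interval is wide for its level. Nr5a1 (SF-1), the nuclear receptor that drives steroidogenic genes and Amh (chromosome 2, 38692660 to 38714542), had 1.61 (1.30 to 1.93) and 1.19 (0.966 to 1.42), a log2 fold change of -0.40 in the direction opposite to the other 5. The call for Gata4 depended on the width of the Klf9-OE interval, since it was lost when that interval was widened by the square root of 2.

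The stromal markers were led by Vim, the intermediate filament of mesenchymal and many cultured cells, which had nearly the same level in both libraries. Vim (chromosome 2, 13574311 to 13582826) had an FPKM of 106 in control PGCs (103 to 109) against 107 in Klf9-OE PGCs (105 to 110.3), and made up 96.7% and 95.7% of the summed FPKM of its group. Pdgfrb, the PDGF receptor of pericytes and stromal cells, had 1.06 (0.880 to 1.24) and 1.89 (1.67 to 2.10), and was the only stromal marker with intervals apart. Dcn (decorin), a matrix proteoglycan, had 0.928 (0.635 to 1.22) and 1.31 (0.995 to 1.62), and Nr2f1, an orphan nuclear receptor, had 0.880 (0.633 to 1.13) and 0.775 (0.564 to 0.986). The rest of the stromal genes were below 0.5 in both libraries.

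These were Nr2f2 (COUP-TFII, a factor of the interstitium) at 0.293 and 0.480, Maf, a bZIP factor of interstitial cells, at 0.388 and 0.341, Tcf21, a factor that restricts the steroidogenic lineage, at 0.106 and 0, and Lum (lumican) at 0 and 0.0318. Their intervals overlapped. Pdgfra is joined with Mir7025 in the files, and the joint locus had 3.05 (2.01 to 4.08) in control PGCs against 2.50 (1.66 to 3.35) in Klf9-OE PGCs. The median log2 fold change of the 8 stromal markers found was 0.21.

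Further stromal genes differed in both directions. Of 18, 4 were higher and 5 were lower with intervals apart, with a median log2 fold change of -0.09. Of the 4 higher genes, 3 encode chains of fibrillar collagens, with Col1a1 at 9.09 (8.55 to 9.63) and 12.5 (12.0 to 13.1), Col3a1 at 5.26 (4.88 to 5.64) and 8.08 (7.66 to 8.51), and Col1a2 at 1.03 (0.855 to 1.2) and 1.68 (1.47 to 1.88). Prrx1, a mesenchymal homeobox gene, was higher as well, at 0.152 and 0.455. Among the lower genes, Gli1, the transcription factor induced by hedgehog signalling, had 5.42 (4.92 to 5.93) in control PGCs against 1.40 (1.17 to 1.63) in Klf9-OE PGCs, which is 3.88 times lower, and Ptch1, the receptor and a target of the same pathway, had 16.2 (15.3 to 17) and 13.7 (12.9 to 14.4). The ligand Dhh overlapped between the libraries, as given above. The other lower genes were Nes at 43.3 and 38.1, Dlk1 at 8.81 and 7.07, and Mfap4 at 0.920 and 0.364.

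The epithelial markers Krt8 and Krt18 encode the keratins that pair in the filaments of simple epithelia, and their genes lie 23873 bases apart on chromosome 15. The promoter windows of the 4 markers that had intervals apart, values above 0 in both libraries and a window in the RefSeq table (build GRCm38.p6) are shown, since these are the windows of genes that differed between the libraries. Klf9 is a Krüppel-like factor, a family that binds GC boxes and CACCC boxes. Capitals mark CACCC or its reverse complement GGGTG, and each window runs 5′ to 3′ on the strand of its gene from 250 bases before the start site to 50 after.
Krt8: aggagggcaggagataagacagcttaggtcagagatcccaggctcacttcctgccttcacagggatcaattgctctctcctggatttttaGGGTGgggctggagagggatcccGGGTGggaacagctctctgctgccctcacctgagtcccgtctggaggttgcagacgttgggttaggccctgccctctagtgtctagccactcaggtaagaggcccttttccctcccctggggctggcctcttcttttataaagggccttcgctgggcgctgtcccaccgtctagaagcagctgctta
Krt18: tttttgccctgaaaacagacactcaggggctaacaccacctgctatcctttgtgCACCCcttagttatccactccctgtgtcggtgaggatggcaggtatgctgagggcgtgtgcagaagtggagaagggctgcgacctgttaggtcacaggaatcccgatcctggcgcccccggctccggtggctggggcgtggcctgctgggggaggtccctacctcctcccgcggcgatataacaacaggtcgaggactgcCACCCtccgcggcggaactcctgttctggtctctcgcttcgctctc
Lhx9: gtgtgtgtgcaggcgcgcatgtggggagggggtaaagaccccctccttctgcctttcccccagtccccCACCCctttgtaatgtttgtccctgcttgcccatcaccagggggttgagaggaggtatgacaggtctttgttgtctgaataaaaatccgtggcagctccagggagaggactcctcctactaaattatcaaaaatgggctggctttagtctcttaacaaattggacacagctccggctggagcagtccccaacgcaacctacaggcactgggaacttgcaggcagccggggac
Tek: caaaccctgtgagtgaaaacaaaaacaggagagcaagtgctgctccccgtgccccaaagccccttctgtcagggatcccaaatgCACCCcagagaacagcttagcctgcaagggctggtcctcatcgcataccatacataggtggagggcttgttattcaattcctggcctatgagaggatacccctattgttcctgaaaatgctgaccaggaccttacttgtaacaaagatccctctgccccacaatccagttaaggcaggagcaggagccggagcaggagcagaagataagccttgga
The windows lie at chr15:102004293-102004592 on the minus strand for Krt8, chr15:102027966-102028265 on the plus strand for Krt18, chr1:138842395-138842694 on the minus strand for Lhx9, and chr4:94739039-94739338 on the plus strand for Tek. Counting the start site as 1, the first base of a match was at -160 and -137 for Krt8, at -196 and 5 for Krt18, at -182 for Lhx9 and at -166 for Tek. The Lhx9 locus has 2 start sites in the files, and its window belongs to a RefSeq start inside the locus rather than at its 5′ end. None of the 4 windows held GGGCGG or its reverse complement CCGCCC. Windows were found for 25 of the 43 markers. CACCC on either strand was in the windows of 16 of these genes (64%), beside 57.5% of all 32851 windows, and GGGCGG was in those of 8 (32%), beside 35.7%. The marker shares are per gene, where any window of the gene could hold the match, whereas the shares beside them are per window. A match of letters is not a binding site, and the windows of markers that were higher and of those that were lower both held CACCC.

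The keratin partners differed in opposite directions. Krt8 (101996711 to 102004342) had an FPKM of 18.8 in control PGCs (17.5 to 20.1) against 14.8 in Klf9-OE PGCs (13.7 to 15.8), whereas Krt18 (102028216 to 102032026) had 17.4 (15.9 to 18.8) and 24.0 (22.5 to 25.6). Their levels were thus alike in control PGCs and apart in Klf9-OE PGCs, where Krt18 was above Krt8. Krt19, another keratin of simple epithelia (chromosome 11, 100140811 to 100145919), had 3.38 (2.74 to 4.03) and 4.68 (3.98 to 5.38), with intervals that just overlapped. Upk3b, a uroplakin of the mesothelium, had 0.119 (0.0218 to 0.216) and 0.130 (0.0381 to 0.222). Pseudogenes of Krt8 and Krt18 exist in mice, and how the authors divided reads among copies is not given in the sources used here.

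Among 8 further epithelial genes, Msln (mesothelin), a surface protein of the coelomic epithelium, was higher with intervals apart, at 1.05 (0.754 to 1.34) and 3.03 (2.41 to 3.65). Aldh1a2, which makes retinoic acid, was lower with intervals apart, at 16.8 (15.5 to 18.1) and 14.1 (13.2 to 15.0). The other 6 overlapped, and the median log2 fold change of the list was 0.15. Lgr4, at 8.81 and 8.24, was the next highest in the list after Aldh1a2.

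The endothelial group was Pecam1 and little else. Pecam1 (CD31, an adhesion molecule that pluripotent cells and germ cells also carry, on chromosome 11) had an FPKM of 16.8 in control PGCs (15.8 to 17.9) against 24.2 in Klf9-OE PGCs (20.9 to 27.4). The intervals of Pecam1 imply 1048 reads in control PGCs and 220 in Klf9-OE PGCs. These implied reads did not rise with its FPKM, but they equal counted reads only if read number alone set the interval width. Pecam1 made up 92.0% of the summed FPKM of the group in control PGCs and 95.2% in Klf9-OE PGCs. Tek (Tie2, the angiopoietin receptor, chromosome 4, 94739289 to 94874976) had 0.735 (0.574 to 0.896) and 0.439 (0.327 to 0.550), a log2 fold change of -0.63 with intervals apart. Like that of Gata4, this separation was lost with the widened Klf9-OE interval. Kdr, the main VEGF receptor, had 0.367 (0.266 to 0.468) and 0.465 (0.361 to 0.569), and Tie1 had 0.336 (0.220 to 0.452) and 0.324 (0.181 to 0.467). Emcn (endomucin) had 0.0298 (0 to 0.133) and 0. The summed FPKM of the group was 18.3 and 25.4, but without Pecam1 it was 1.47 and 1.23, so the direction of the sum was that of Pecam1 alone.

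The 20 further endothelial genes were also low, with a median FPKM of 0.422 in control PGCs against 0.749 in Klf9-OE PGCs. Their median log2 fold change was 0.27, with 4 higher and 2 lower with intervals apart. Cdh5 (VE-cadherin), the adhesion molecule of endothelial junctions, had 2.0 (1.66 to 2.33) and 5.09 (4.57 to 5.60), and Flt4, the VEGF receptor of lymphatic vessels, had 0.445 (0.336 to 0.553) and 1.30 (1.13 to 1.47). Ramp2, which makes the adrenomedullin receptor, had 1.2 (0.686 to 1.71) and 2.50 (1.82 to 3.17). Each of the 3 was at least 2 times higher in Klf9-OE PGCs. Eng (endoglin) was listed at 0 in control PGCs and at 2.38 (2.05 to 2.71) in Klf9-OE PGCs. In the other direction, Erg, an endothelial ETS factor, had 3.05 (2.64 to 3.45) and 1.33 (1.09 to 1.57), and Plvap, a protein of vessel diaphragms, had 2.73 (2.26 to 3.19) and 1.77 (1.43 to 2.12). Genes of the same cell type thus differed in opposite directions. Egfl7, the highest of the list, had 8.10 and 10.2, with overlapping intervals.

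**Figure D3:**
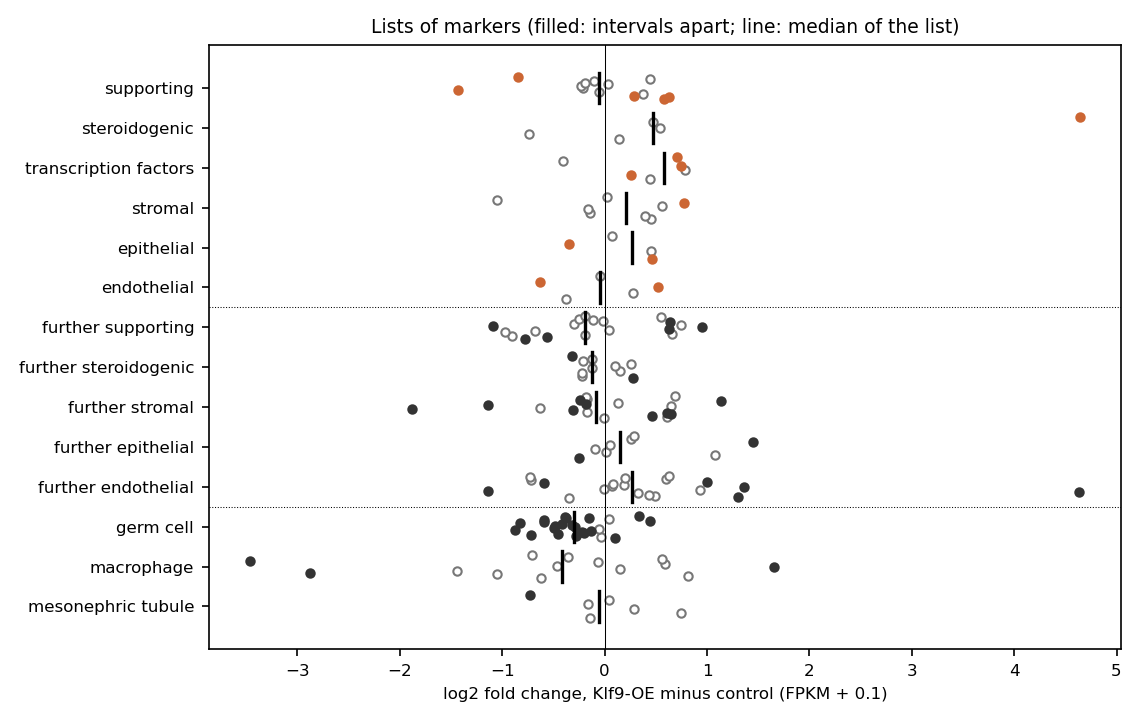
Log2 fold change (Klf9-OE minus control, FPKM + 0.1) of each gene in the 6 marker groups (top), in the further lists of the same lineages (middle), and in lists of germ cell, macrophage and mesonephric tubule genes (bottom). Filled points have intervals apart and the vertical line is the median of the list, which runs from -0.06 to 0.58 in the marker groups and is -0.30 in the germ cell list.

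Set beside the germ cell list, the marker groups had a low summed FPKM. The summed FPKM of the 24 germ cell genes was 3163 in control PGCs against 2798 in Klf9-OE PGCs. Those of the supporting group were 119 and 145, of the stromal group 109.7 and 112, of the epithelial group 39.7 and 43.6, and of the transcription factors 14.2 and 19.3. Each group was higher in Klf9-OE PGCs on this scale, by 1.02 times for the stromal group up to 1.69 times for the steroidogenic group. The latter was 1.19 times without Star, and the endothelial group was higher only with Pecam1. The germ cell sum was 0.884 times that of control PGCs, and the sum over all named genes was 0.958 times. The further lists of the marker lineages together had 0.972 times. By list, the ratio was 0.844 for supporting, 0.939 for stromal, 0.972 for steroidogenic, 0.982 for epithelial and 1.33 for endothelial genes. Of the 24 germ cell genes, 3 were higher and 18 were lower with intervals apart. Among the 12565 named genes with an FPKM of at least 1 in at least 1 library, these shares were 14.8% and 20.2%. At high levels the intervals are narrow, and a ratio of 0.913 (Mov10l1) was already apart. For some of the lower genes, such as Stra8 and Mael, the implied reads did not follow the FPKM ratio. Without Clu and Vim, the highest markers, the sum over all markers was 113 and 139. Sums weigh the few high genes most, and the lists differ in length, so they do not measure the share of each cell type.

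**Figure D4:**
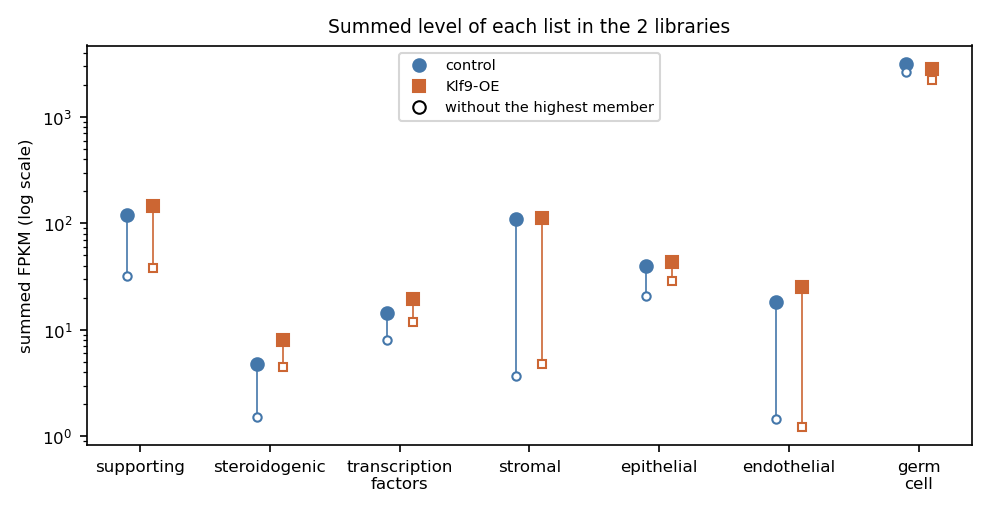
Summed FPKM (log axis) of each marker group and of the germ cell list in control PGCs (circles) and Klf9-OE PGCs (squares), 1 library each, with open symbols for the sum without the highest gene of the list in control PGCs. Without Pecam1 the endothelial sum is 1.47 and 1.23, and without Vim the stromal sum is 3.66 and 4.82.

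Markers of other cells that a sort of gonads could hold did not follow 1 direction either. Of 14 macrophage genes, 1 was higher and 2 were lower with intervals apart, with summed FPKM of 10.1 and 10.8. Their median log2 fold change was -0.41, with 9 of 14 below 0, and the median FPKM was 0.21 in control PGCs and 0.051 in Klf9-OE PGCs. Csf1r was higher, at 0.307 and 1.18, whereas C1qb and Lyz2, at 0.635 and 1.0 in control PGCs, had no FPKM above 0 in Klf9-OE PGCs. The intervals of Csf1r imply 31.0 and 46.6 reads, which does not follow its FPKM ratio of 3.85. The implied reads of Cd68 and Fcer1g, the highest of the list and higher in FPKM with overlapping intervals, did not follow their ratios either. The pan-leukocyte gene Ptprc and the macrophage gene Adgre1 were below 0.1 in both. Of 6 genes of the mesonephric tubules, which adjoin the gonad, only Wfdc2 had intervals apart, at 14.0 and 8.42. Of the erythroid list, 8 of 13 genes were found by symbol, 6 were above 0, none reached an FPKM of 1, and none had intervals apart. Those not found were the globin genes Hba-a1, Hba-a2, Hbb-bs and Hbb-bt, and Ahsp, so their RNA was not measured here. The part of any of these cells in the marker differences was not tested.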

How the data were processed

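RNA-seq of 1 control and 1 Klf9-OE library of cultured E13.5 PGCs was used. The authors deposited FPKM from Cufflinks, each with the bounds of a 95% interval. The submitters' processing notes name TopHat2, Bowtie and the mm10 genome, and the reads were single-end. Versions are not given in the sources used here. The minimum for a gene was an FPKM above 0 in at least 1 library.

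Where several loci carry 1 symbol, their FPKM was added up, and the distances to the bounds were combined in quadrature. Loci under joint names (Insl3, Pdgfra) were given no value as members. With 1 library per condition, no test was possible, and the calls compare these libraries, not the conditions. Read totals are not in the files. Implied reads, the square of 2 times the FPKM over the distance to the upper bound, were even, within 0.06, for 36.4% of control genes and 89.0% of Klf9-OE genes with 1 to 9 reads, and the Klf9-OE intervals were therefore also widened. Of the 35 markers above 0 in both libraries, 23 had implied reads whose ratio was within 10% of the FPKM ratio at the depth of these libraries. Outside the markers and the germ cell list, the implied reads of Amhr2, Prrx1, Msln, Aldh1a2, Cdh5, Csf1r, Wfdc2 and Xist, all with intervals apart, were not. Implied reads equal counted reads only where read number alone sets the width of the interval.

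The members and lists were chosen with earlier results of these data known. Each marker with an FPKM of at least 0.5 or intervals apart is described, and of other lists the 3 highest genes and those with intervals apart may be named. Cyp11b1, Cyp19a1, Cyp21a1, Hsd3b6 and Lhcgr, and Adgre1, Ptprc, Ddx3y, Kdm5d and Uty, were named after their values were seen. Alternatives were pseudocounts of 0.01 and 1, FPKM minimums, rescaling to the same upper quartile or sum, the highest locus, a ratio of 1.5 and widened intervals. The code for the calls was run on simulated read counts, with intervals built by the same rule from read number alone. That run checked the code and not how often real libraries give such calls. Promoter windows came from RefSeq (GRCm38.p6). Python 3.11.15, numpy 2.4.6, pandas 2.3.3 and matplotlib 3.10.9 were used.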

Additional observations from a re-analysis of the deposited data

How the results depend on the processing

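With an FPKM of at least 1 in at least 1 library, 2 markers were lower with intervals apart, 1 was at least 2-fold higher, 0 were at least 2-fold lower, and the endothelial median, resting on Pecam1 alone, was 0.52 in place of -0.04. With an FPKM above 0 in both libraries, 1 marker was at least 2-fold higher and 0 were lower. With a ratio of FPKM + 0.1, 1 was higher and 2 were lower, and with a ratio of at least 1.5, 10 were higher. Medians close to 0 changed sign with the scaling or the minimum. The endothelial median was 0.0072 with the same sum, which moved the median of all genes from -0.02 to 0.04, and 0.12 with an FPKM above 0 in both libraries. The supporting median was 0.29 with an FPKM of at least 1. Widening the Klf9-OE interval, or, as a setting chosen after seeing the data, both intervals, left 9 and 7 markers higher, and 3 and 3 lower, with intervals apart. Of 205 values of single markers under alternatives, 12 moved by more than their interval, 11 of them under another pseudocount and 1 (Vim) with the same sum, and no marker with intervals apart changed sign. No paired analysis was possible because each condition had 1 library. Marker differences under the width of the intervals were not detectable at this depth.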
